A study of Homo sapiens with 12 samples.

Results

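A set of 55 protein-coding genes followed the activity of miR-29 in 3 human renal cell carcinoma lines: their transcripts were more abundant where a miR-29 mimic had been added and less abundant where miR-29 had been blocked. The genes were chosen by their measured values. Each had at least 100 counts summed over the libraries of every line, and the mean log2 CPM (CPM, counts relative to the TMM-adjusted size of each library, with a prior count of 2) had to be at least 0.5 higher with the mimic than with the control in both mimic-treated lines, 786-O and A-498, and at least 0.3 lower with the inhibitor than with the control in ACHN. The 55 members were picked in this way out of 11130 protein-coding genes with enough counts, in tables of 58051 genes. The opposite pattern, which is the direction of a target that miR-29 represses, was met at the same sizes by 446 genes.

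RNA-seq was performed on 12 libraries of 3 established lines that the labels describe as clear cell renal cell carcinoma lines, in total RNA taken 48 h after transfection with 10 nM of each reagent. The 786-O cells received a miR-29 mimic (1 library) or a control mimic (1 library), A-498 cells a miR-29 mimic (2 libraries) or a control mimic (2 libraries), and ACHN cells a miR-29 inhibitor (3 libraries) or a control inhibitor (3 libraries). Each line was compared with its own controls, and all libraries, controls included, came from transfected cells. The study's methods call the A-498 and ACHN libraries of a group biological replicates, and in 786-O a difference has no replicate check. They also state that 2 further A-498 samples of the mimic experiment were left out because their labels may have been wrong. Between 39919554 and 70027392 reads per library fell in genes. PAX8, VIM, KRT8 and KRT18, which mark renal epithelial and carcinoma cells, were detected in every library, whereas CA9, a marker of clear cell carcinoma, reached 7.45 to 11.3 CPM in A-498 and at most 0.312 CPM in 786-O and 0.165 CPM in ACHN. CDH6 was at most 0.326 CPM in ACHN, and markers of leukocytes, endothelium, liver and smooth muscle were at most 0.598 CPM in any library. Among 40 listed miR-29 targets, edgeR called 31 of 35 tested lower in A-498 (27% of all tested genes were called lower) and 29 of 35 higher in ACHN (17.3% of all), and none of them was a member.

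MicroRNAs of the miR-29 family guide Argonaute proteins to the 3′ untranslated region (3′ UTR) of messenger RNAs, where pairing of the seed, the bases near the 5′ end of the miRNA, leads to repression and decay of the transcript. The family is known for restraining collagens and other matrix genes in kidney and other tissues, along with DNA methylation and demethylation enzymes. A transcript that becomes more abundant when a miRNA is added moves against this direct action.

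The 3 mature miR-29 sequences are shown because they define the match searched for in the members. They were taken from RefSeq and are written 5′ to 3′ with the seed, bases 2 to 8, in capitals.
hsa-miR-29a-3p: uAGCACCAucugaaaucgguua
hsa-miR-29b-3p: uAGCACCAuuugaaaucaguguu
hsa-miR-29c-3p: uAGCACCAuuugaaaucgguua
The seed was the same in all 3. Its reverse complement in a transcript reads TGGTGCT, called a 7mer-m8 match, and TGGTGCTA is an 8mer match. Shorter matches lack the base opposite position 8 and are called 7mer-A1 (with a trailing A) or 6mer.

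None of the 55 members had a 7mer-m8 or 8mer match in the first 2000 nt of its longest annotated 3′ UTR, where 12.5% of 11105 genes with enough counts and a 3′ UTR had one and 46.6% of the 446 genes with the opposite pattern had one. Counting any match of 6 bases or more, 7 members had one (12.7%), against 28.8% of all genes and 72.2% of the 446. These 7 were ZDHHC23, MFSD2A, TESMIN and MEF2C with a 7mer-A1 and NR6A1, DGKE and CELSR3 with a 6mer. The rule did not use sequence, but it required the direction opposite to that of a target that miR-29 represses. The choice by direction therefore bears on these shares, which are given as a description without a test. Members did not have short 3′ UTRs, with a median of 1731 nt against 1594 nt for all genes, but the GC content of their 3′ UTRs was lower (median 36.75% against 42.12%). Among the 11 members whose isoforms share a single-exon 3′ UTR, 0 had a 7mer-m8 or 8mer match, against 11.3% of all genes of that kind.

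**Figure D1:**
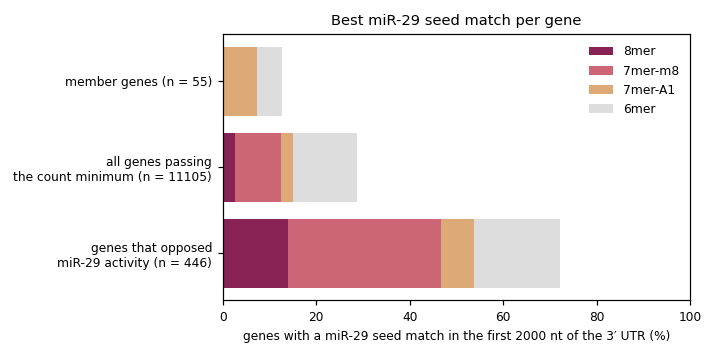
Share of genes (%) whose best miR-29 seed match in the first 2000 nt of the 3′ UTR is an 8mer, 7mer-m8, 7mer-A1 or 6mer, for the 55 members, 11105 genes with enough counts and 446 genes with the opposite pattern. The bar of the members holds 7mer-A1 and 6mer matches alone and ends at 12.7%, against 28.8% and 72.2%.

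Over the whole 3′ UTR, 2 members (3.64%) had a 7mer-m8 or 8mer match, against 18% of all genes, and both sites lay far from the stop codon. They are shown on the transcript strand (GRCh38), with the match in capitals.
CEP41 (chr7, minus strand): atttttcctgTGGTGCTAtttaaattat
ZNF678 (chr1, plus strand): ccagaaactaTGGTGCTgtggtgaagt
The 8mer of CEP41 began 3117 nt after the stop codon in a 3′ UTR of 5120 nt (chr7:130395757-130395784 with its flanks). The 7mer-m8 of ZNF678 began 5939 nt after it in a 3′ UTR of 6634 nt (chr1:227661757-227661783 with its flanks). Of 18 other miRNA seed matches counted in the same 2000 nt, that of miR-30a-5p, TGTTTAC, was present in 14 members (25.5%) against 13.9% of all genes, and that of miR-21-5p, ATAAGCT, in 1 member (1.82%) against 7.03%. Matches to the remaining seeds lay between 0% of members (miR-210-3p, 2.3% of all genes) and 20% (miR-23a-3p, 16% of all genes). The AU-rich word TATTTAT, found in unstable transcripts, was present in 23 members (41.8%) against 30.1% of all genes.

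Promoters were read from RefSeq (GRCh38, 250 bases before to 50 bases after the annotated start) and were matched for 39 of the 55 members and 9184 of the 11130 genes. Words were searched on both strands: TATAAA, the core of a TATA box, was in 12.8% of the matched members and 5.6% of all matched promoters. The word CCAAT (bound by NF-Y) was in 43.6% against 36.5%, and GGGCGG (GC box) in 64.1% against 69.5%. The word TTCCCGCC (E2F) was in 3 members (7.69% against 5.15%), which were CEP41, NUP58 and GLDC, and TGACGTCA (cAMP response element) was in NR6A1 and KIF5C (5.13% against 3.32%). The word TTTGAA (cell cycle homology region) was in 15.4% against 10.2%, CACGTG (E-box) in 15.4% against 9.9%, CATTCC (TEAD) in 5.13% against 10.8% and TGANTCA (AP-1) in 2.56% against 4.75%. The word GGAANTTCC, part of an NF-kB-like site, was in 1 member (2.56% against 1.12%). The TTCCCGCC word can overlap GGGCGG read on the other strand. The median GC content was 65.0% in members and 65.3% in all matched promoters. The word TATAAA was in 5 members and CATTCC in 2, and no test of these shares was made. Of the 5, TM4SF4 alone had its promoter window outside its GENCODE gene span. The windows of SERPINB7, HOXA9, STEAP2 and MFSD6 lay inside the span, at a start downstream of its first base. In MFSD6 the word did not lie wholly within the 250 bases before the start.

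The 250 bases before the start of 4 members are shown, on the strand of the gene, because these members lead the set (TM4SF4), belong to the mitotic list (HMMR) or carry the E2F or cAMP response word (GLDC, NR6A1). Capitals mark every match to the words above.
TM4SF4 (chr3:149474447-149474696, plus strand): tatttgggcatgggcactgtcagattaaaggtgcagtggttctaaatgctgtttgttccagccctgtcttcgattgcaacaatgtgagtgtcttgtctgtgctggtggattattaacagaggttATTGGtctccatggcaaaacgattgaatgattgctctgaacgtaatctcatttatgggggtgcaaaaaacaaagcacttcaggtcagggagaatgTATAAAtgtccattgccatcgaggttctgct
HMMR (chr5:163460382-163460631, plus strand): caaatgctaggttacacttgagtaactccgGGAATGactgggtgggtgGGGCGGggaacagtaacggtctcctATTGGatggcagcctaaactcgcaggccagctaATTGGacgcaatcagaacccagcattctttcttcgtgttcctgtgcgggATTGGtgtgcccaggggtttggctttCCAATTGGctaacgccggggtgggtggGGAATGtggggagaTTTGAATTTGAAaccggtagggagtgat
GLDC (chr9:6645730-6645979, minus strand): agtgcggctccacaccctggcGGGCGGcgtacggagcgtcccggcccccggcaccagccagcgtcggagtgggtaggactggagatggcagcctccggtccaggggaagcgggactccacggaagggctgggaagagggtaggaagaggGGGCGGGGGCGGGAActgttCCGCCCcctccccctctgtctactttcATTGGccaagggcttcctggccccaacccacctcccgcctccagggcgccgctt
NR6A1 (chr9:124771312-124771561, minus strand): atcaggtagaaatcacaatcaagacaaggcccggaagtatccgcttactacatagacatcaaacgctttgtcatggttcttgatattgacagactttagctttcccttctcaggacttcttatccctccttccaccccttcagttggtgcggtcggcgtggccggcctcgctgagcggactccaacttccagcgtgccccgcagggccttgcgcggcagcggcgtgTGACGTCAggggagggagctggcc
The TM4SF4 promoter held a TATA word 31 bases before the start and no GC box. The HMMR promoter held 5 CCAAT words counted on both strands, of which 2 overlap in the palindrome CCAATTGG. It also held 2 adjoining TTTGAA words at 28 and 22 bases before the RefSeq start, which lay inside the GENCODE gene span. CCAAT and TTTGAA words are known from promoters of genes of G2 phase and mitosis. The GLDC promoter held the E2F word 94 bases before the start, beside GC boxes, and the NR6A1 promoter held the cAMP response word 24 bases before it.

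A pair of CCAAT words starting 29 bases apart on the same strand stood out among the zinc finger members after their promoters were seen. It was present in ZNF273, ZNF43 and ZNF678, 3 of the 4 ZNF members, in 1 of 35 other matched members, in 14 of 281 ZNF genes with a promoter (4.98%) and in 29 of 8903 promoters of genes with other symbols (0.326%). The 50 bases around both words are shown to let the 3 be compared, with the words in capitals.
ZNF273 (chr7:64903178-64903227, plus strand): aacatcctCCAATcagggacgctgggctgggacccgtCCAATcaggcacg
ZNF43 (chr19:21836228-21836277, minus strand): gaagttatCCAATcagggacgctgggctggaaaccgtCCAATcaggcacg
ZNF678 (chr1:227563465-227563514, plus strand): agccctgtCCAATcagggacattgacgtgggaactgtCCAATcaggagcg
The words began 87 and 58 bases before the RefSeq start in ZNF273 and ZNF43 and 83 and 54 bases before it in ZNF678. The promoter windows of ZNF273 and ZNF43 lay wholly inside the GENCODE gene span, at a start downstream of its first base. Zinc finger genes of this kind arose by duplication, so these promoters are related sequences and not independent cases.

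All 3 contrasts were used to choose the members, so their shifts are given as a description. The shift is the mean log2 CPM of the treated libraries minus that of the controls. A shift of at least 0.5 was reached by 11.7% of the 11130 genes in 786-O and by 6.86% in A-498, and a shift of at most -0.3 by 5.07% in ACHN. The members' median shift with the mimic was 0.84 in 786-O and 0.85 in A-498, that with the inhibitor -0.40, where the medians of all 11130 genes were -0.04, -0.05 and 0.01. In 786-O 19 members had a shift of at least 1, in A-498 18 had one, and in ACHN 2 members, TM4SF4 and SLC16A9, reached -1. Of the 55, 23 had the larger mimic shift in A-498 and the others in 786-O. In A-498 edgeR called 55 of 55 members higher (25.5% of all tested genes were called higher), and in ACHN it called 48 of 55 lower (14.4% of all). The A-498 groups did not overlap for 55 members (35.6% of the 11130 genes were higher without overlap) and the ACHN groups for 48 (23.3% were lower without overlap). The 7 members not called in ACHN included ZNF296, KIF5C, TECTA, LIPT2, PPFIA3 and SPX. In 786-O the members had 114 to 36357 counts in both libraries together (median 1088), and the 95% exact counting interval of the log2 ratio, which covers counting error only, lay above 0 for 55 and above 0.5 for 38.

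**Figure D2:**
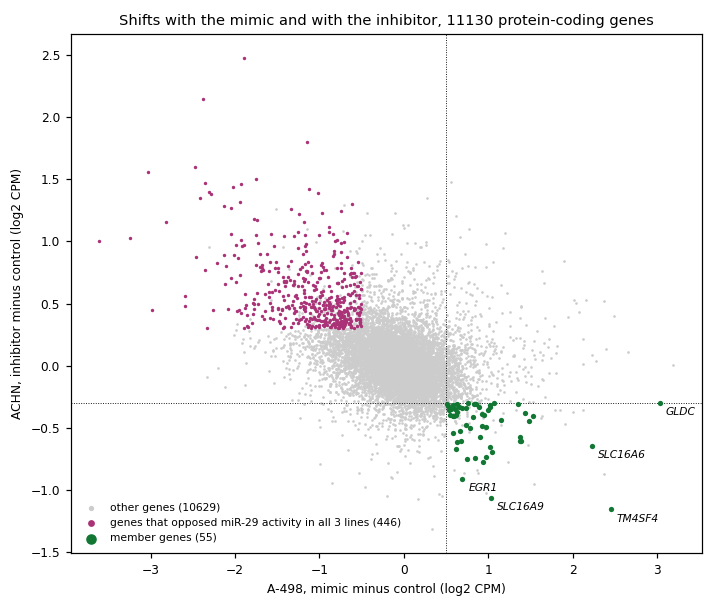
Shift with the mimic in A-498 (x axis) against shift with the inhibitor in ACHN (y axis), both in log2 CPM, for 11130 protein-coding genes, with dotted lines at the thresholds of 0.5 and -0.3. The 55 members lie in the lower right corner by construction, TM4SF4 at 2.45 and -1.16 and GLDC at 3.03 and -0.30, and grey genes in that corner missed the 786-O threshold.

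Membership near the thresholds turned on small differences. In 786-O the members just inside were EIF5A2 (0.52) and STEAP2 (0.53), and the genes just outside were LIN7B (0.499) and ZNF107 (0.498). In A-498 MAST3 (0.51) and MCOLN2 (0.52) were just inside, and EVPL (0.493) was among the genes just outside. In ACHN MFSD6 (-0.30) and GLDC (-0.30) were just inside, and GPR180 (-0.2997) and ALPK1 (-0.2986) just outside. Leaving out each A-498 or ACHN library in turn, 35 members remained in every case. MAST3 was kept in the fewest, 5 of 10, followed by TECTA and SPX with 6 of 10.

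**Figure D3:**
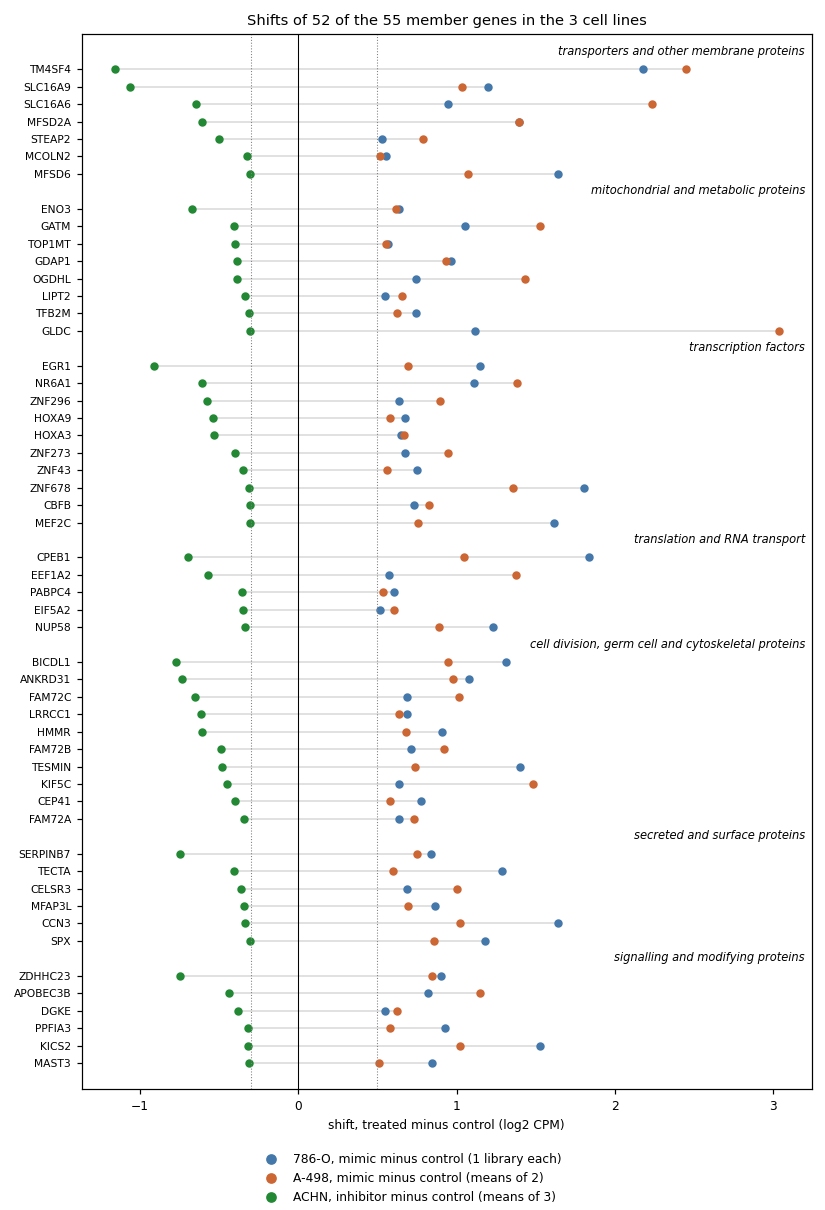
Shift of 52 of the 55 members, treated minus control in log2 CPM, in 786-O, A-498 and ACHN, grouped by the role of the protein and sorted within a role by the smallest of the 3 shifts. Dotted lines mark the thresholds of 0.5 and -0.3 that chose the members. TM4SF4 has the longest span of the membrane proteins, and GLDC has the highest A-498 value of all (3.03).

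Transporters and other membrane proteins made up 7 members and included the leading pair. TM4SF4 (ENSG00000169903, chr3:149474697-149503394, GRCh38), a membrane protein of the tetraspan L6 family found in liver and gut epithelium, had 80.9, 72.2 and 83.8 CPM in the controls against 35.8, 34.7 and 35.4 CPM with the inhibitor in ACHN. In A-498 it had 0.262 and 0.275 CPM in the controls against 1.98 and 1.32 CPM with the mimic, and in 786-O 1.58 CPM in the control and 7.30 CPM in the mimic library. It was thus a moderately abundant transcript in ACHN that fell to less than the lowest control in every inhibitor library, and a scarce one in the mimic-treated lines. Its shifts were 2.18, 2.45 and -1.16 in the order 786-O, then A-498, then ACHN, which is used for all shifts given as 3 values. The other TM4SF genes with enough counts moved the other way: TM4SF1 shifted by -0.26, -0.44 and 0.21 and TM4SF18 by -0.98, -1.11 and 0.38, and in edgeR both were lower among A-498 libraries with the mimic and higher where ACHN cells had the inhibitor.

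SLC16A9 (ENSG00000165449, chr10:59650764-59736002), a member of the monocarboxylate transporter family, had 21.1, 22.9 and 19.2 CPM in the controls against 10.2, 9.999 and 9.89 CPM with the inhibitor in ACHN. Its levels in A-498 were 18.9 and 19.7 CPM in the controls against 39.5 and 39.4 CPM with the mimic. In 786-O it had 2.43 CPM in the control and 5.63 CPM in the mimic library. The groups did not overlap in either replicated line, and the level went from 21.0 ± 1.85 CPM in the ACHN controls to 10.02 ± 0.135 CPM with the inhibitor (SD, n = 3), a 2.10-fold decrease. SLC16A6, of the same transporter family, was scarcer, with 0.411 and 0.241 CPM in the controls against 1.45 and 1.79 CPM with the mimic in A-498. It had 2.65, 2.50 and 2.56 CPM in the controls against 1.78, 1.69 and 1.43 CPM with the inhibitor in ACHN. Its levels in 786-O were 1.80 CPM in the control and 3.52 CPM in the mimic library. The A-498 shift of 2.23 came from 232 counts of SLC16A6 in 4 libraries, whose groups did not overlap. The main lactate transporters of the family took the opposite direction: SLC16A1 shifted by -1.73, -1.21 and 0.18 and SLC16A3 by -0.98, -0.63 and 0.65, with calls opposite to those of the members. SLC16A4 (0.88, 0.34 and -0.12) had the same calls as the members, with few counts in 786-O. Of 11 SLC16 genes tested in A-498, 5 were called higher and 5 lower.

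MFSD2A, a transporter of lysophospholipids with omega-3 fatty acids, had nearly equal shifts in both mimic lines (1.40, 1.39 and -0.61). It had 4.63 and 3.70 CPM in the controls against 11.6 and 10.2 CPM with the mimic in A-498. Its levels in ACHN were 5.40, 5.16 and 5.32 CPM in the controls against 3.34, 3.53 and 3.48 CPM with the inhibitor. MFSD6, a relative in the major facilitator superfamily, shifted by 1.64, 1.07 and -0.30, and STEAP2, a metalloreductase, by 0.53, 0.79 and -0.50. Of the STEAP relatives, STEAP3 moved the other way (-1.64, -1.12 and 0.15) with calls opposite to those of STEAP2, while STEAP1 (0.30, 0.09 and -0.48) was called lower in ACHN and not called in A-498. MCOLN2, an endolysosomal cation channel, shifted by 0.55, 0.52 and -0.32, whereas its relatives MCOLN1 (-0.19, -0.50 and 0.45) and MCOLN3 (0.06, -0.44 and 0.34) took the opposite calls in both replicated lines. In this group all 7 members were called in both replicated lines.

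**Figure D4:**
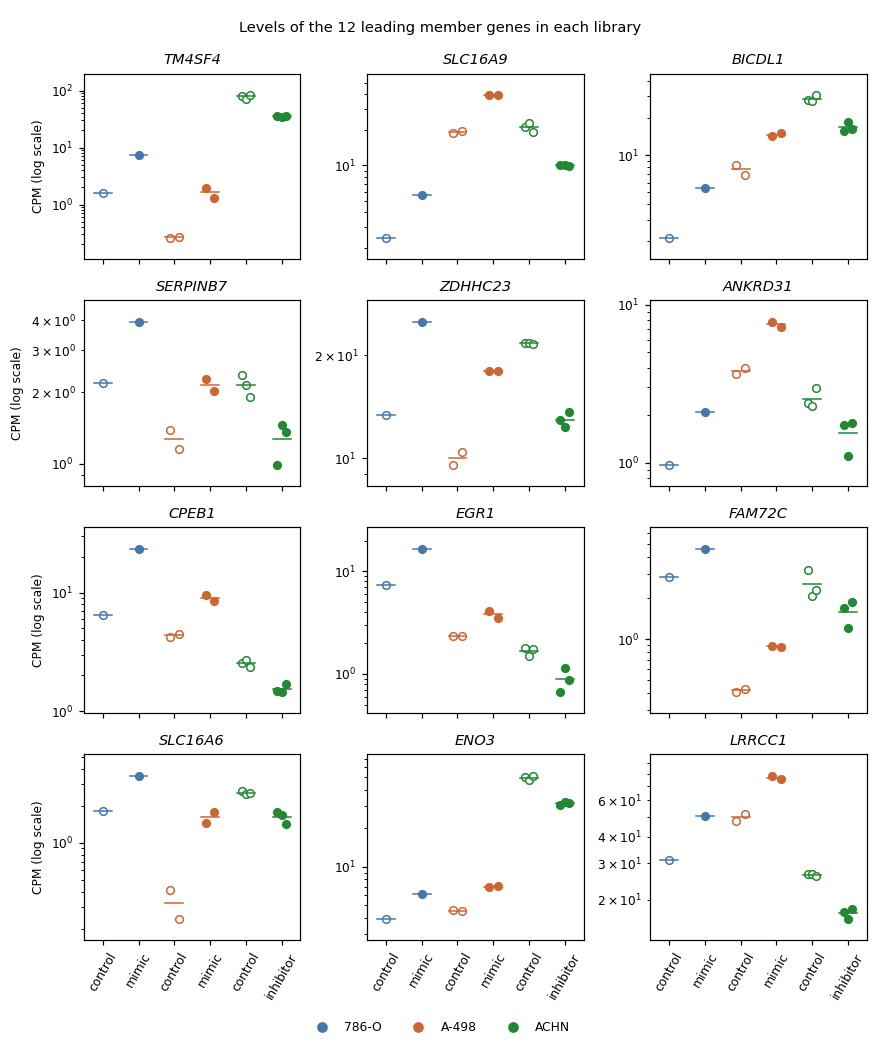
CPM on a log scale in each of the 12 libraries for the 12 members with the largest smallest shift, with open circles for controls, filled circles for the mimic or inhibitor, and bars for group means. All 12 show inhibitor libraries below every ACHN control (23.3% of all genes with enough counts were lower without overlap). TM4SF4 differs most between lines of these 12, from 0.262 CPM in A-498 to 83.8 CPM in ACHN controls.

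Mitochondrial and metabolic proteins made up 8 members. GLDC, the decarboxylase of the glycine cleavage system, had the widest range between lines, with 115, 119 and 119 CPM in the controls against 93.0, 93.8 and 99.6 CPM with the inhibitor in ACHN. In A-498 it had 0.0934 and 0.344 CPM in the controls against 1.59 and 1.96 CPM with the mimic, and in 786-O 1.13 CPM in the control and 2.49 CPM in the mimic library. The A-498 shift of 3.03 was the largest of any member and was set against controls at 0.0934 and 0.344 CPM. The ACHN shift of -0.30 was close to the threshold, and GLDC was lost in 3 of 10 leave-one-out sets. None of the other subunits was a member: DLD, which is also part of other dehydrogenase complexes, shifted by -1.24, -0.64 and 0.06 and GCSH by -1.10, -0.12 and 0.03.

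GATM, which makes the precursor of creatine, shifted by 1.05, 1.53 and -0.40, with 2.17 and 2.58 CPM in the controls against 7.05 and 6.71 CPM with the mimic in A-498. Its levels in ACHN were 10.3, 9.35 and 9.12 CPM in the controls against 7.54, 7.005 and 7.19 CPM with the inhibitor. GAMT, which completes creatine synthesis, was also called higher in A-498 and lower in ACHN, at smaller sizes (0.28, 0.31 and -0.28). The creatine transporter SLC6A8 was called in the same directions (-0.80, 0.12 and -0.39) but was lower with the mimic in 786-O. OGDHL, a relative of the oxoglutarate dehydrogenase subunit OGDH, shifted by 0.74, 1.43 and -0.38, and OGDH itself by 0.20, -0.23 and -0.02.

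ENO3, the muscle form of enolase, had 49.96, 47.9 and 51.4 CPM in the controls against 30.3, 32.1 and 31.5 CPM with the inhibitor in ACHN. Its levels in A-498 were 4.58 and 4.49 CPM in the controls against 6.91 and 7.05 CPM with the mimic. In 786-O it had 3.94 CPM in the control and 6.14 CPM in the mimic library. The inhibitor libraries all lay below the controls. ENO1, the abundant form, shifted by -0.17, -0.30 and -0.18 and was called lower in both A-498 and ACHN. ENO2, the neuronal form, shifted by 0.02, 0.36 and -0.27 and was called higher in A-498 and lower in ACHN, as ENO3 was. TFB2M, a transcription factor of mitochondrial DNA and among the 6 most abundant members, shifted by 0.75, 0.63 and -0.31, and TOP1MT, the mitochondrial topoisomerase, by 0.57, 0.55 and -0.40. GDAP1, a protein of the mitochondrial outer membrane, shifted by 0.96, 0.93 and -0.39, and LIPT2, which acts in lipoic acid attachment, by 0.55, 0.65 and -0.33. LIPT2 was the one member of this group not called in ACHN, where its controls (0.841, 1.18 and 1.27 CPM) overlapped the inhibitor libraries (0.896, 0.844 and 0.810 CPM).

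Transcription factors and cofactors made up 12 members, all called higher in A-498 and 10 called lower in ACHN. EGR1 (ENSG00000120738, chr5:138465479-138469303), an immediate early factor, had 1.78, 1.51 and 1.76 CPM in the controls against 0.672, 1.13 and 0.882 CPM with the inhibitor in ACHN. Its levels in A-498 were 2.34 and 2.34 CPM in the controls against 4.08 and 3.54 CPM with the mimic. In 786-O it had 7.46 CPM in the control and 16.6 CPM in the mimic library. Its ACHN shift of -0.91 was the third of all members in size, at a level below 2 CPM. EGR1 was the one member among 19 listed immediate early and AP-1 genes. Of these 19, 12 of 18 tested were called higher in A-498 and 2 lower, and in ACHN 4 of 17 were called higher and 3 lower, so the list as a whole did not share the EGR1 pattern in ACHN. In 786-O the median shift of the list was -0.44.

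NR6A1, an orphan nuclear receptor of germ cells and embryos, had 20.6 CPM in the control and 44.5 CPM in the mimic library in 786-O. It had 4.60 and 4.49 CPM in the controls against 12.6 and 11.2 CPM with the mimic in A-498. Its levels in ACHN were 4.82, 4.71 and 5.14 CPM in the controls against 2.88, 3.38 and 3.37 CPM with the inhibitor. No library of one group reached into the other in either replicated line. CBFB, the subunit that pairs with RUNX factors, was among the most abundant members. It had 204, 203 and 200 CPM in the controls against 161, 163 and 167 CPM with the inhibitor in ACHN. In A-498 CBFB had 53.6 and 57.4 CPM in the controls against 100.2 and 96.9 CPM with the mimic, and in 786-O 111 CPM in the control and 184 CPM in the mimic library. Its ACHN shift of -0.31 was close to the threshold. RUNX1 shifted by 0.35, 0.13 and -0.06 and RUNX2 by -0.46, -0.23 and -0.32, so the 3 expressed genes of the complex did not move together in all lines.

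HOXA9 and HOXA3, homeobox factors of positional identity, were the one pair of members whose annotated spans lay within 10 kb (9.9 kb on chr7). The long HOXA3 span runs over HOXA4, HOXA5 and HOXA6. Its RefSeq promoter window, from chr7:27113843, lies inside that span and farther from HOXA9. HOXA9 had 60.7, 59.6 and 61.0 CPM in the controls against 40.3, 41.0 and 43.6 CPM with the inhibitor in ACHN. In A-498 HOXA9 had 32.4 and 34.3 CPM in the controls against 49.9 and 49.8 CPM with the mimic, and in 786-O 55.3 CPM in the control and 88.4 CPM in the mimic library. HOXA3 had 17.4, 18.2 and 18.6 CPM in the controls against 11.02, 13.8 and 12.9 CPM with the inhibitor in ACHN. In A-498 HOXA3 had 13.6 and 14.6 CPM in the controls against 22.1 and 22.8 CPM with the mimic, and in 786-O 94.96 CPM in the control and 149 CPM in the mimic library. Both had narrow groups without overlap. The cluster did not move as 1 block: HOXA10, next to HOXA9, shifted by -1.44, -1.37 and 0.48 with calls opposite to those of the members, while HOXA7, between the pair, shifted by 0.02, 0.57 and -0.35. The annotated spans of HOXA9 and HOXA10 overlap on the same strand, as do those of HOXA3 and HOXA4, HOXA5 and HOXA6. Reads in the shared exons cannot be assigned to 1 gene in strict counting, so these values rest on the remaining reads.

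**Figure D5:**
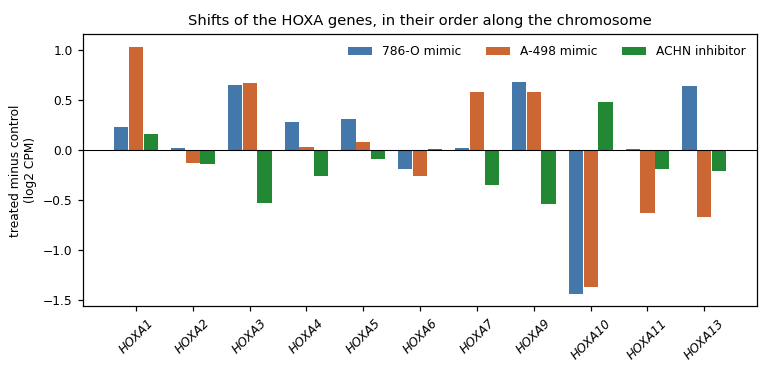
Shifts in log2 CPM of the 11 HOXA genes in their order along the chromosome, with the mimic in 786-O and A-498 and with the inhibitor in ACHN. HOXA3 and HOXA9 are positive in both mimic lines and negative in ACHN, and HOXA10 has the opposite signs (-1.44, -1.37 and 0.48).

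Among the other factors, MEF2C, a factor of muscle and neurons, shifted by 1.61, 0.76 and -0.30. MEF2A, a relative of MEF2C, shifted by 0.51, 0.58 and -0.02 and was called higher in A-498 and not called in ACHN. The zinc finger members were ZNF296 (0.64, 0.90 and -0.57), ZNF273 (0.68, 0.95 and -0.40), ZNF43 (0.75, 0.56 and -0.35) and ZNF678 (1.80, 1.36 and -0.31). They were 4 of 324 ZNF genes with enough counts, whose median shifts were 0.05, 0.02 and -0.01. ZNF678 had the largest mimic shifts of the 4, with 18.4 and 19.0 CPM in the controls against 49.7 and 46.2 CPM with the mimic in A-498. In 786-O it had 13.2 CPM in the control and 46.2 CPM in the mimic library.

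Proteins of translation and RNA transport made up 5 members, all called in both replicated lines. EEF1A2 (ENSG00000101210, chr20:63488013-63499239), the muscle and neuron form of an elongation factor, was the most abundant member per length. Its control levels were 49.4, 23.4 and 33.8 RPKM (CPM per kb of exon, with TMM over all 12 libraries), in the same order of lines. It had 126 and 112 CPM in the controls against 305 and 311 CPM with the mimic in A-498. EEF1A2 had 156, 153 and 168 CPM in the controls against 101, 115 and 105 CPM with the inhibitor in ACHN, and in 786-O it had 235 CPM in the control and 350 CPM in the mimic library. EEF1A1, the ubiquitous form, shifted by 0.06, 0.26 and 0.02. CPEB1, which binds the cytoplasmic polyadenylation element, was scarce, with 6.51 CPM in the control and 23.4 CPM in the mimic library in 786-O. It had 4.26 and 4.47 CPM in the controls against 9.53 and 8.58 CPM with the mimic in A-498. Its levels in ACHN were 2.54, 2.69 and 2.36 CPM in the controls against 1.49, 1.46 and 1.71 CPM with the inhibitor. None of CPEB2, CPEB3 and CPEB4 was called in A-498, and CPEB3 was called higher in ACHN (0.70).

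PABPC4, a cytoplasmic poly(A)-binding protein, had 134, 122 and 126 CPM in the controls against 98.6, 98.7 and 102 CPM with the inhibitor in ACHN. In A-498 PABPC4 had 150 and 141 CPM in the controls against 214 and 208 CPM with the mimic, and in 786-O 322 CPM in the control and 491 CPM in the mimic library. PABPC1, the main form, was called in the same directions at smaller shifts (0.14, 0.22 and -0.22). PABPC4 and MFSD2A lie 378.3 kb apart on chr1, the second closest pair of members. EIF5A2, a tissue-restricted form of a translation factor, shifted by 0.52, 0.60 and -0.35 and the ubiquitous EIF5A by 0.01, -0.20 and -0.10. NUP58, a nuclear pore protein, had 148 and 156 CPM in the controls against 287 and 277 CPM with the mimic in A-498. NUP58 had 163, 161 and 161 CPM in the controls against 133, 122 and 129 CPM with the inhibitor in ACHN, and in 786-O it had 80.0 CPM in the control and 187 CPM in the mimic library. Its mimic shifts (1.23 and 0.89) were larger than its ACHN shift (-0.34).

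Proteins of cell division, germ cells and the cytoskeleton made up 10 members. HMMR, a hyaluronan receptor that also acts on the mitotic spindle, had 113, 109 and 113 CPM in the controls against 73.5, 66.5 and 80.2 CPM with the inhibitor in ACHN. In A-498 HMMR had 79.4 and 82.5 CPM in the controls against 132 and 127 CPM with the mimic, and in 786-O 107 CPM in the control and 201 CPM in the mimic library. No groups overlapped, and HMMR was the second most abundant member per length, at 27.7, 19.5 and 29.1 RPKM in the controls. It was the one member among 27 listed mitosis and G2/M genes. On balance that list was lower in both replicated lines, with 17 of 27 called lower and 5 higher in A-498, and 16 of 27 called lower and 1 higher in ACHN, while its median shift in 786-O was 0.52. Besides HMMR, the mitotic genes called higher in A-498 and lower in ACHN were AURKA (1.12, 0.42 and -0.29), CDC20 (1.09, 0.25 and -0.43), BUB1 (1.07, 0.28 and -0.39) and KIF23 (0.92, 0.09 and -0.11). In bulk libraries, fewer cells in mitosis and less RNA per cell cannot be told apart.

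BICDL1, an adaptor of dynein and kinesin, had 28.1, 27.4 and 30.9 CPM in the controls against 15.7, 18.6 and 16.4 CPM with the inhibitor in ACHN. In A-498 BICDL1 had 8.39 and 6.95 CPM in the controls against 14.3 and 15.2 CPM with the mimic, and in 786-O 2.14 CPM in the control and 5.39 CPM in the mimic library. LRRCC1, a centrosomal protein, had 26.6, 26.5 and 26.1 CPM in the controls against 17.6, 16.3 and 18.0 CPM with the inhibitor in ACHN. In A-498 LRRCC1 had 47.6 and 51.5 CPM in the controls against 78.4 and 75.4 CPM with the mimic, and in 786-O 31.1 CPM in the control and 50.2 CPM in the mimic library. For both, each replicated line gave separate groups. CEP41, a centrosomal and ciliary protein, shifted by 0.77, 0.58 and -0.40, and KIF5C, a neuronal kinesin, by 0.64, 1.49 and -0.45. KIF5C was not called in ACHN, where it had 0.821, 0.660 and 0.869 CPM in the controls against 0.704, 0.557 and 0.448 CPM with the inhibitor, and the abundant KIF5B shifted by 0.07, -0.44 and -0.05.

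Among germ cell genes, ANKRD31, which acts in meiotic recombination, had 3.63 and 3.99 CPM in the controls against 7.79 and 7.28 CPM with the mimic in A-498. Its levels in ACHN were 2.38, 2.29 and 2.96 CPM in the controls against 1.73, 1.09 and 1.79 CPM with the inhibitor. Its 786-O value rested on 137 counts, with a counting interval of 0.58 to 1.67 for the log2 ratio. TESMIN, a testis-expressed protein, shifted by 1.40, 0.74 and -0.48. FAM72A, FAM72B and FAM72C, near-identical copies on chromosome 1, shifted by 0.63, 0.73 and -0.34, by 0.71, 0.92 and -0.48 and by 0.69, 1.02 and -0.65. The fourth copy, FAM72D, shifted by -0.04, 0.69 and -0.22. Reads shared between copies could be split or lost in counting, so the values of single copies are uncertain and the 3 are not independent members. FAM72C, the scarcest, had 3.24, 2.07 and 2.29 CPM in the controls against 1.70, 1.21 and 1.88 CPM with the inhibitor in ACHN. In A-498 FAM72C had 0.411 and 0.430 CPM in the controls against 0.897 and 0.877 CPM with the mimic, and in 786-O 2.84 CPM in the control and 4.61 CPM in the mimic library.

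Secreted and surface proteins made up 6 members. SERPINB7, a serine protease inhibitor of epithelia, had 2.36, 2.14 and 1.91 CPM in the controls against 0.992, 1.46 and 1.36 CPM with the inhibitor in ACHN. In A-498 SERPINB7 had 1.38 and 1.15 CPM in the controls against 2.27 and 2.03 CPM with the mimic, and in 786-O 2.19 CPM in the control and 3.94 CPM in the mimic library. CCN3, a matricellular protein, shifted by 1.64, 1.02 and -0.33 and had 50.4, 49.0 and 51.3 CPM in the controls against 40.6, 38.4 and 40.5 CPM with the inhibitor in ACHN. The relatives CCN1 (-0.55, -0.40 and 0.19) and CCN2 (-0.05, 0.10 and 0.77) were both called higher in ACHN, the opposite of CCN3. CELSR3, an adhesion receptor of planar polarity, shifted by 0.69, 1.00 and -0.36. It was called in ACHN although 1 inhibitor library, at 13.9 CPM, did not lie below the lowest control. MFAP3L, a membrane glycoprotein, shifted by 0.86, 0.69 and -0.34, SPX, a peptide hormone, by 1.18, 0.86 and -0.31 and TECTA, a matrix protein of the inner ear, by 1.29, 0.60 and -0.41. SPX and TECTA overlapped in ACHN. TECTA had the fewest 786-O counts of all members (114) and shares its span and strand with a read-through gene, TBCEL-TECTA.

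Signalling and modifying proteins made up 7 members. ZDHHC23, a palmitoyltransferase, had 21.8, 21.8 and 21.6 CPM in the controls against 12.9, 12.3 and 13.6 CPM with the inhibitor in ACHN. In A-498 ZDHHC23 had 9.57 and 10.4 CPM in the controls against 17.9 and 18.1 CPM with the mimic, and in 786-O 13.4 CPM in the control and 25.1 CPM in the mimic library. The ACHN controls lay within 0.3 CPM of each other, and every inhibitor library was well below them. APOBEC3B, a cytidine deaminase, shifted by 0.82, 1.15 and -0.44, its relative APOBEC3C by -0.08, 0.16 and 0.24 and APOBEC3D, which was called higher in A-498 and not called in ACHN, by -0.43, 1.17 and 0.05. Reads of APOBEC3 genes and of the EEF1A and EIF5A families can be shared with close relatives, so these values are uncertain. KICS2, a subunit of the KICSTOR complex that restrains mTOR signalling, shifted by 1.53, 1.02 and -0.32, and the subunits ITFG2 (0.28, 0.16 and -0.02) and KPTN (-0.26, -0.33 and -0.01) had smaller shifts. DGKE, a diacylglycerol kinase, shifted by 0.55, 0.63 and -0.38. The kinase MAST3 shifted by 0.84, 0.51 and -0.31 and the liprin PPFIA3 by 0.93, 0.58 and -0.32.

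TM4SF4 and SLC16A9 were also the members of a list of 30 proximal tubule and kidney lineage genes, of which 13 had enough counts in all lines. The list was chosen with earlier results of these data known, so it is a description only. In A-498, 9 of 24 tested were called higher and 5 lower (25.5% and 27% of all tested genes). In ACHN, 1 of 18 was called higher and 8 lower (17.3% and 14.4% of all). Beside the members, SLC17A3, PAX8 and SLC13A3 were called higher in A-498 and lower in ACHN. SLC17A3 shifted by 0.18, 0.77 and -0.46, PAX8, a renal lineage factor, by 0.30, 0.79 and -0.22 and SLC13A3, a dicarboxylate transporter, by 0.08, 1.17 and -0.38. These genes missed at least 1 threshold.

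The remaining 12 lists held no member. They covered NF-kB, MAPK feedback, interferon, E2F and DNA replication, sterol, stress response, p53, NRF2, epithelial junction, lysosome, let-7 target and miRNA machinery genes. Of 37 DNA replication genes, A-498 had 29 called lower and 1 higher, and ACHN had 28 lower and 2 higher. Of 19 p53 targets, A-498 had 18 called higher and 0 lower, and ACHN had 14 higher and 1 lower. Among all tested genes, A-498 had 25.5% called higher and 27% lower, and ACHN had 17.3% and 14.4%. In both lists the more frequent call had the same direction with the mimic in A-498 and with the inhibitor in ACHN. The other mimic line, 786-O, with 1 library per group, did not share that direction. Its median shift was 0.15 for the DNA replication genes, against -0.39 in A-498. For the p53 targets it was -0.15, against 0.73 in A-498.

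The members' control levels were low among genes with enough counts. The median control level was 1.48, 1.19 and 1.99 RPKM for the lines in the same order, where the medians of all 11130 genes were 6.42, 6.24 and 6.51 RPKM. Levels under 1 RPKM were found for 20, 26 and 18 members, against 9.84%, 11.1% and 11.3% of all genes. The highest control level was in ACHN for 28 members, in 786-O for 19 and in A-498 for 8, where the shares of all genes were 34.2%, 35.3% and 30.5%. Scarce genes have wider counting error, and their part in passing the thresholds was not tested. With at least 500 counts required in each line, 35 members remained. The median gene spanned 44.1 kb against 35.5 kb for all genes, with 6117 nt against 5650 nt of exon.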

How the data were processed

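Total RNA was depleted of ribosomal RNA and made into stranded libraries, and per the study's methods reads were aligned to GRCh38 with HISAT2 and assigned by HTSeq-count to genes of Ensembl v87 in strict intersection mode. The authors deposited raw counts per gene for each library, counted on the reverse strand. Deposited DESeq2 tables (fold changes and p-values) were not used. The 5 summary lines for reads not assigned to 1 gene, 37.2% to 48.0% of reads, were left out. CPM used TMM factors computed within each line, and RPKM used TMM factors computed over all 12 libraries. Each line was tested by itself in edgeR (version 4.0.16, R version 4.3.3) with glmQLFTest, its quasi-likelihood test (TMM, filterByExpr, Benjamini-Hochberg adjusted p under 0.05 over all tested genes). The test recovered changes planted in simulated counts. Those changes were larger than the ACHN shifts of most members, and none was planted in the scarcest genes. DESeq2 1.42.0 was an alternative. No test was made in 786-O. Some genes, 3 members among them, are not reported by name here. Gene spans and 3′ UTRs came from GENCODE 44 and GRCh38. Members, lists, tests and alternatives were chosen with earlier results of these data known, and the role groups and gene families after the values were seen. The genes given by library were the 12 with the largest smallest shift, the 6 most abundant per length, members of lists, members with E2F or cAMP response words, those at the thresholds and close neighbours, with others added after their values were seen.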

Additional observations from a re-analysis of the deposited data

How the results depend on the processing

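The 55 members were all kept with library size in place of TMM, DESeq2 size factors, TMM over all 12 libraries, a prior count of 0.5, edgeR fold changes and a minimum of 20 counts, and the number of members became 91, 68, 68, 58, 65 and 92. Each of these scalings moved the median shift of all genes towards the thresholds in every line (library size by 0.03, 0.11 and -0.02). A minimum of 20 counts can only add members. Keeping all 55 in such settings is therefore little check on them. How far this accounts for the added members was not tested. With a prior count of 5 it was 54, and with at least 500 counts 35. Leaving out 1 library at a time gave 54 to 58 members, of which 48 to 53 were among the 55. Library size moved the A-498 median of all genes up by 0.11, less than the A-498 shift of every named gene called lower. Members called higher in A-498 numbered 50 with DESeq2, 52 at an adjusted p under 0.01 and 52 to 55 without 1 library. Members called lower in ACHN numbered 47, 46 and 45 to 50. With the replicate number as a block in ACHN, 48 members were called lower, as without it. Same-numbered ACHN libraries deviated with correlations of 0.22, -0.05 and -0.13, so the numbers were not treated as pairs, and the A-498 groups share 1 number only. Members with a 7mer-m8 or 8mer match numbered 2 over the whole 3′ UTR, 0 for the 8mer alone or for single-exon 3′ UTRs, and 7 for any match of at least 6 bases. In 786-O, 1 library per group limits every value.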

Other observations

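Among 1533 genes of other biotypes with enough counts in each line, 7 met the same 3 thresholds. FLG-AS1, a long non-coding RNA, shifted by 1.31, 2.42 and -0.38, in the order of lines used above. The pseudogenes KLRA1P, LRP5L and ANKRD20A5P shifted by 0.65, 0.72 and -0.40, by 0.95, 0.78 and -0.31 and by 0.51, 0.87 and -0.37. Reads of pseudogenes can be shared with similar genes, so these values are uncertain. The other 3 have no symbol in the annotation used.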
